A study of Mus musculus with 18 samples.

Results

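The killer cell lectin receptors described here are 5 listed mouse genes: Klrg1, Klrd1, Klrk1, Klrc1 and Klrb1c. Each was followed through the probe sets that the chip annotation assigned to that gene alone, and where a gene had several, the one that varied most across the 18 arrays stood for it. By this rule 4 of the 5 genes were measured, through 5 probe sets, among 18193 genes measured in all. Klrb1c had no probe set of its own, and a probe set that the annotation assigns to Klrb1b and Klrb1c together is reported separately. The genes were selected on values of these arrays: Klrg1 was known to be higher and Klrd1 lower in regulatory T (Treg) cells than in conventional T cells (Tconv) of this series.

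Affymetrix mouse arrays with 45101 probe sets were used to measure RNA in 18 samples of sorted CD4+ T cells. The cells came fresh from lymph nodes and spleen of B6;129 mice heterozygous at Foxp3, the X-linked gene for the transcription factor that defines Treg cells. All of these mice carried a wild-type Foxp3 allele marked with the GFP reporter, and on the other X chromosome a wild-type or mutant allele marked with hCD2, so each Treg cell used 1 allele and was sorted by its reporter. Mutant Treg cells therefore came from mice that also held wild-type Treg cells. The hCD2+ groups were wild type (WT hCD2, 2 arrays, numbered 3 and 4) or expressed Foxp3 with the A384T, I363V or R397W substitution (3 arrays each). GFP+ wild-type Treg cells came from mice whose hCD2 allele was wild type (WT GFP, 2 arrays) and from the A384T mice (3 arrays). Tconv were CD4+ cells of wild-type mice that carried neither reporter (2 arrays). The labels do not say that the arrays of a group are separate animals, so each p measures the spread between these samples, which may be technical. The precision of all values is limited by the small number of arrays.

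Killer cell lectin receptors are C-type lectin-like membrane proteins of natural killer (NK) cells and of some T cells. Inhibitory members carry a tyrosine motif that recruits phosphatases, and activating members signal through adaptor proteins. In T cells they are known mainly from cells that have met antigen repeatedly. Klrg1 is an inhibitory receptor for cadherins and a marker of differentiated effector T cells and of a subset of Treg cells. Klrd1, known as CD94, pairs with the inhibitory Klrc1 (NKG2A) to bind the non-classical MHC molecule Qa-1. Klrk1 (NKG2D) is an activating receptor for stress-induced ligands and signals through Hcst and Tyrobp. Klrb1c is the activating receptor NK1.1.

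All values are on a log2 scale whose 0 is the Tconv mean of that probe set, since the authors' values came centred in this way. Groups can be compared on it, but how bright a probe set was in any sample is not known. Whether a receptor or a marker is at background in any group therefore cannot be read from these values. In these bulk samples, fewer cells with a transcript and less of it per cell cannot be told apart. Foxp3 lay between 6.38 and 7.59 in the 16 Treg arrays and at -0.07 and 0.07 in Tconv. All 5 Treg markers (Foxp3, Il2ra, Ikzf2, Ctla4 and Tnfrsf18) were higher in every Treg array than in both Tconv arrays. The same held for 2.91% of all genes. Against WT hCD2, Foxp3 differed by 0.15 in A384T, -0.34 in I363V and -0.55 in R397W, none of which passed the test. At a limma adjusted p under 0.05, 1 of the 5 markers was lower than WT hCD2 in I363V (Ikzf2). In R397W 2 were (Il2ra and Ikzf2). Of all genes, 0.682% and 1.55% were. A384T was above R397W for Foxp3 (0.70, limma adjusted p = 0.0432), Il2ra (1.71) and Ctla4 (1.01), as were 2.22% of all genes. It was above I363V for Il2ra (1.43), as were 0.885%. The genes of the receptors lie on chromosome 6, where Klrd1 and Klrk1 are neighbours in the RefSeq GRCm38.p6 annotation.

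Klrg1 was high in every wild-type Treg array and near the Tconv values in every mutant array. In Tconv its values were -0.13 and 0.13. Wild-type Treg cells had 2.89 and 4.43 (WT GFP), 3.49 and 4.92 (WT hCD2), and 3.47, 4.25 and 4.21 (WT GFP of A384T mice). The mutants had -0.05, 0.11 and 0.06 (A384T), -0.50, 0.12 and -0.22 (I363V), and -0.76, -0.70 and -0.23 (R397W). The 7 wild-type Treg arrays and the 9 mutant arrays did not overlap, with medians of 4.21 and -0.22. Of all genes, 0.742% had every mutant array below every wild-type Treg array. The mean of the 4 Treg arrays of wild-type mice was 3.93 above Tconv, a 15.3-fold difference that is part of how the gene was chosen and is given without a test. In order of the group means, WT hCD2 (4.21 ± 1.01, SD, n = 2), WT GFP of A384T mice (3.98 ± 0.44, SD, n = 3) and WT GFP (3.66 ± 1.09, SD, n = 2) had overlapping arrays. After a wide gap came A384T (0.04 ± 0.08, SD, n = 3), Tconv, I363V (-0.20 ± 0.31, SD, n = 3) and R397W (-0.56 ± 0.29, SD, n = 3), and each of these overlapped its neighbour in the order.

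**Figure D1:**
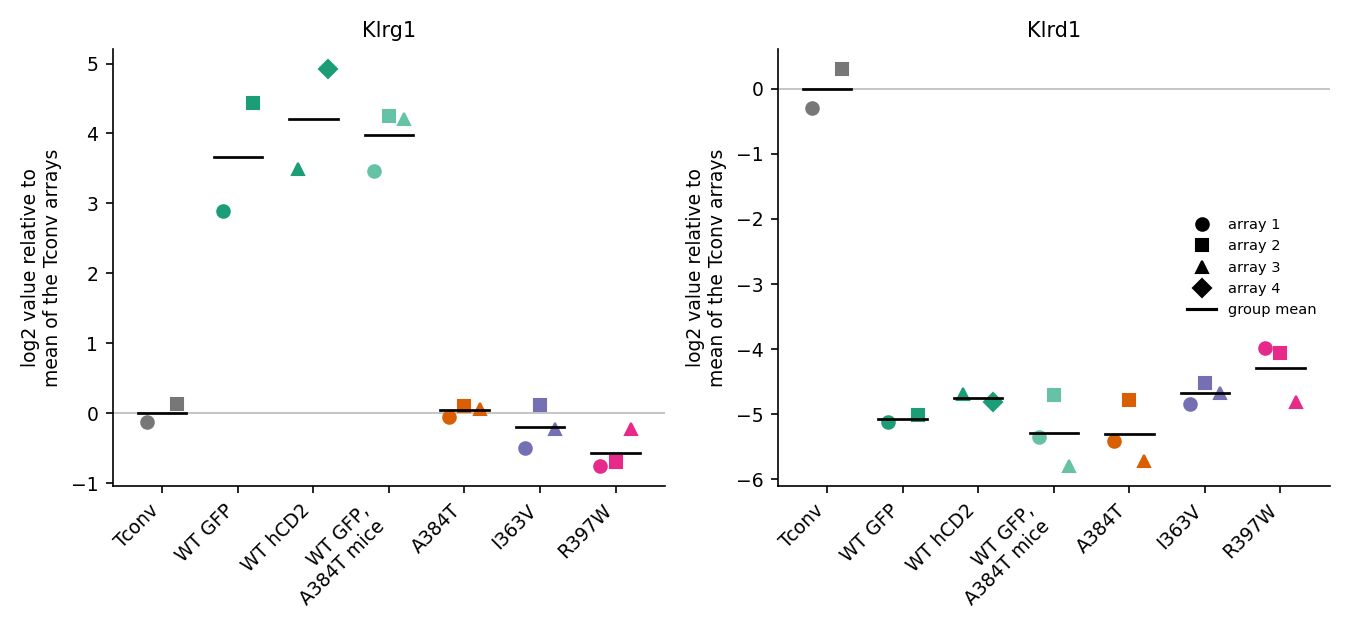
Values of Klrg1 (left) and Klrd1 (right) in each array, as log2 value with the Tconv mean at 0, by group, where symbols give the array number in the labels and bars the group mean. The 7 wild-type Treg arrays of Klrg1 lie between 2.89 and 4.92 and the 9 mutant arrays between -0.76 and 0.12, while all 16 Treg arrays of Klrd1 lie between -5.80 and -3.98.

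Each mutant was compared with WT hCD2, the wild-type cells that carry the same reporter, and A384T also with the wild-type GFP cells of the A384T mice. The decrease of Klrg1 was known from an earlier analysis of these data, and the comparisons with WT hCD2 share the same 2 control arrays, so they do not support one another. These 2 arrays are also part of the Treg mean by which Klrg1 was chosen. The sizes, p and ranks of its fall against WT hCD2 therefore draw on the selecting values and are no independent support. In limma's moderated test, called at an adjusted p under 0.05 over all genes, Klrg1 of A384T cells fell by 4.17 ± 0.42 (SE), 17.9-fold, with an adjusted p of 0.000903. In I363V it fell by 4.41 ± 0.42, 21.2-fold, with an adjusted p of 0.000269. In R397W it fell by 4.77 ± 0.42, 27.3-fold, with an adjusted p of 3.57e-05. Of the 4 measured receptors 1, Klrg1, was called in each comparison, where 0.28% of all genes were called for A384T, 0.912% for I363V and 2.26% for R397W. In each of these comparisons no other gene had a lower log2 change. Klrg1 stayed called without any single array of the groups compared: the change then ranged from -4.88 to -3.45 for A384T, from -5.12 to -3.69 for I363V and from -5.48 to -4.06 for R397W.

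Within the A384T mice, Klrg1 fell by 3.93 ± 0.38 (SE), 15.3-fold, with an adjusted p of 0.000227 from limma. In this comparison 0.522% of all genes were called, and Klrg1 was again the only 1 of the 4 receptors. A384T and wild-type arrays with the same number deviated together over all genes, so the numbers were taken to pair these samples. No label states this pairing. The A384T array differed from its partner by -3.51, -4.14 and -4.15 in the 3 pairs. With the number as a block the change was -3.93 ± 0.13, with an adjusted p of 2.6e-06, in a fit that called 5.23% of all genes. The wild-type GFP cells of A384T mice differed from those of wild-type mice by 0.32 ± 0.42 (95% interval -0.59 to 1.23, adjusted p = 1), a comparison in which 0% of all genes were called. Among the mutants Klrg1 differed by 0.24 (interval -0.57 to 1.05) between A384T and I363V. It differed by 0.60 (interval -0.21 to 1.42) between A384T and R397W, and by 0.36 (interval -0.45 to 1.18) between I363V and R397W. None of these passed the test, and the intervals allow differences of more than 1 on the log2 scale.

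The hCD2 and GFP cells were also compared in wild-type mice, where both are wild type. The WT hCD2 mean of Klrg1 was 0.55 above the WT GFP mean, whereas in A384T mice the hCD2 cells, which carry the mutation, differed from the GFP cells by -3.93. The difference of these differences was -4.48 ± 0.60 (SE, interval -5.77 to -3.20), with an adjusted p of 0.0163 from limma, where 0.0495% of all genes were called. This call was lost, with adjusted p up to 0.103, in 8 of 17 alternative fits. It was lost without WT GFP array 1 (-3.72, adjusted p = 0.0625) or WT hCD2 array 4 (-3.77, adjusted p = 0.0767). It was also lost without array 2 (adjusted p = 0.0678) or 3 (0.0581) of the wild-type cells of A384T mice, and without A384T array 1 (0.0535) or 2 (0.0601).

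**Figure D2:**
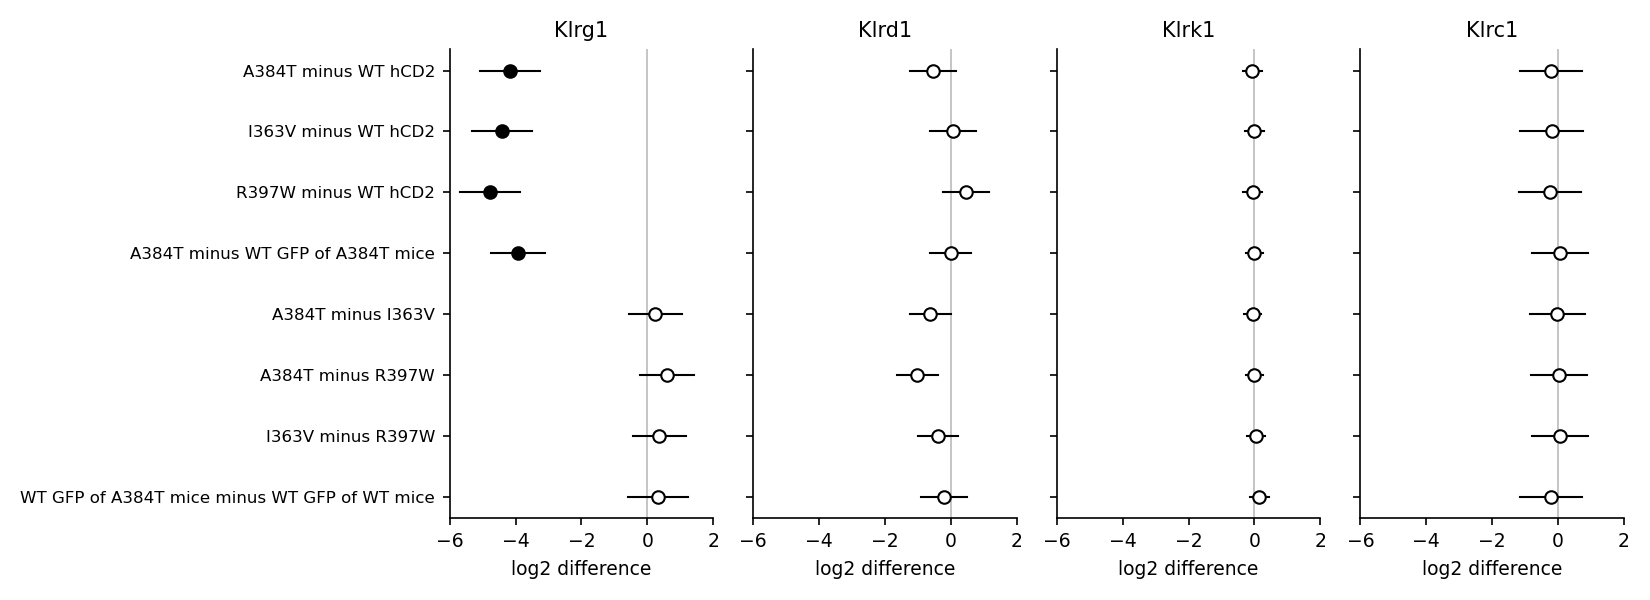
Log2 difference of Klrg1, Klrd1, Klrk1 and Klrc1 in 8 comparisons, from the limma fit of all arrays, where lines give 95% intervals and filled points an adjusted p under 0.05. Klrg1 is called in the 4 comparisons of mutant with wild-type Treg cells, at -4.77 to -3.93, and no other receptor is called in any comparison shown.

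Klrd1 was far below Tconv in all Treg cells, wild type and mutant. Its values in Tconv were -0.30 and 0.30. In wild-type Treg cells they were -5.12 and -5.01 (WT GFP), -4.69 and -4.81 (WT hCD2), and -5.35, -4.71 and -5.80 (WT GFP of A384T mice). In the mutants they were -5.41, -4.78 and -5.72 (A384T), -4.84, -4.52 and -4.67 (I363V), and -3.98, -4.06 and -4.81 (R397W). No Treg array came near the Tconv arrays. The mean of the Treg arrays of wild-type mice lay 30-fold below Tconv (log2 difference -4.91), and the mutant means were at -5.30 (A384T), -4.67 (I363V) and -4.28 (R397W). These differences from Tconv chose the gene and are a description. Of the 4 receptors, 3 (Klrd1, Klrk1 and Klrc1) had all Treg arrays below both Tconv arrays, as did 2.68% of all genes.

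Klrg1 and Klrd1 thus differed in what the mutations left of the Treg pattern: the mutant arrays were near or below the Tconv arrays for Klrg1, and around the wild-type Treg arrays for Klrd1. Against WT hCD2, Klrd1 differed by -0.55 ± 0.33 in A384T (interval -1.25 to 0.15, adjusted p = 0.711). It differed by 0.07 ± 0.33 in I363V (interval -0.62 to 0.77, adjusted p = 0.982) and by 0.46 ± 0.33 in R397W (interval -0.23 to 1.16, adjusted p = 0.69). No change of Klrd1 was called. The intervals still allow a fall of more than 1 on the log2 scale in A384T and a rise of more than 1 in R397W.

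Within the A384T mice, the pairs showed how closely Klrd1 followed the array number. The A384T array differed from its wild-type partner by -0.06, -0.06 and 0.09, although the values ran from -5.80 to -4.71 between pairs. The mean difference was -0.01 (interval -0.64 to 0.61) and, with the number as a block, -0.01 ± 0.08 (interval -0.19 to 0.17). Arrays numbered 2 had the highest Klrd1 in both groups, -4.71 and -4.78. They also had the highest values of Tyrobp, the adaptor of activating NK cell receptors, at -0.75 and -0.82 against -2.24 to -1.81 in the other 4 arrays. Gzma, a granule protease of cytotoxic cells, was 0.41 and 0.31 in the arrays numbered 2 and between -1.51 and -0.57 in the others. The median of the 14 NK and CD8 T cell markers was likewise highest in these arrays within each group, -0.16 against -0.47 and -0.49 in wild-type cells and -0.53 against -0.98 and -1.19 in A384T cells. Not all markers followed, since the NK cell marker Ncr1 was lowest in these arrays within each group, at -0.10 and -0.26. The median of the 8 myeloid markers was also highest in them within each group. It was 0.31 against -0.41 and -0.22 in wild-type cells and 0.05 against -0.63 and -0.21 in A384T cells. So was that of the 7 measured T cell identity genes, at 0.37 and 0.42. The part of other cells in the spread of Klrd1 was not tested.

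**Figure D3:**
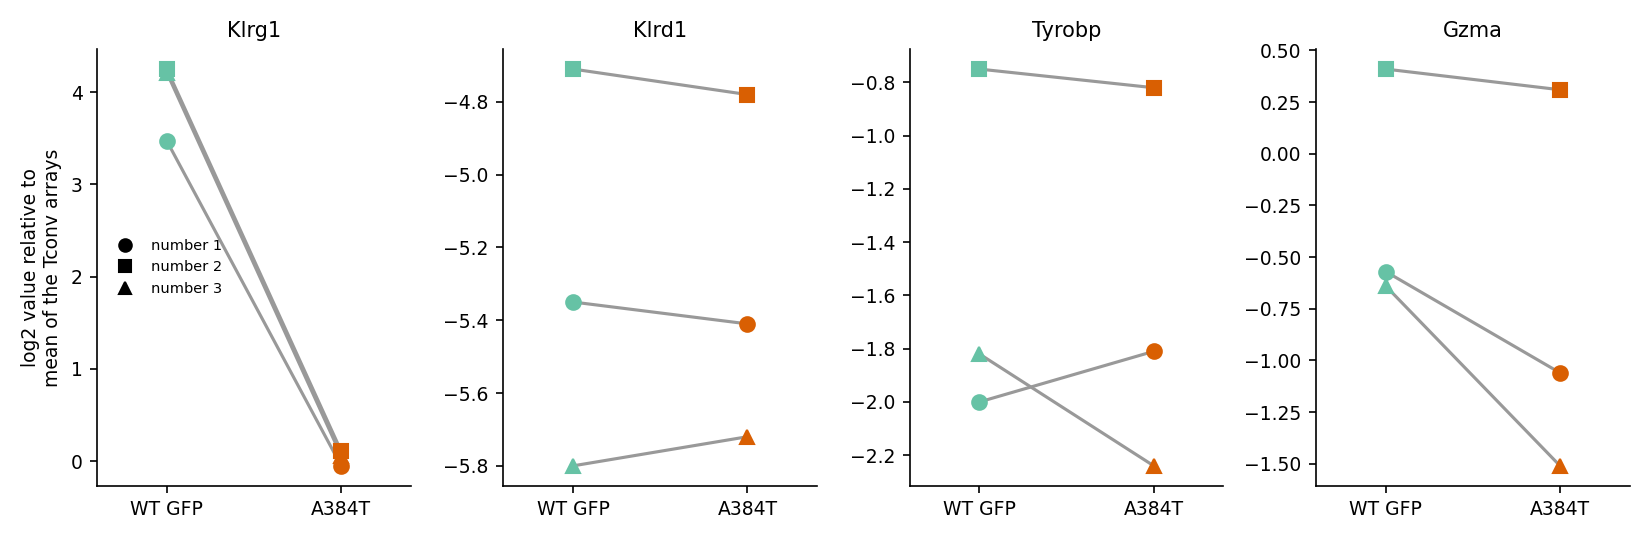
Klrg1, Klrd1, Tyrobp and Gzma in the wild-type GFP cells and the A384T cells of A384T mice, as log2 value with the Tconv mean at 0 on axes of different range, where lines join arrays with the same number. Klrg1 differs by -4.15 to -3.51 in the 3 pairs, whereas Klrd1 differs by at most 0.09 within a pair and is highest in both arrays numbered 2.

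Among the mutants the order of Klrd1 was R397W, I363V and A384T from high to low. A384T was below R397W (log2 difference -1.02 ± 0.29, interval -1.64 to -0.39). This did not pass the test over all genes, with an adjusted p of 0.0818 from limma, where 3.13% of genes were called, and the arrays overlapped. Without R397W array 3, the lowest of its group, the difference was -1.28 ± 0.30 and passed, with an adjusted p of 0.0319. A384T differed from I363V by -0.63 (interval -1.25 to -0.00, adjusted p = 0.577), where 1.14% of genes were called. I363V differed from R397W by -0.39 (interval -1.01 to 0.23, adjusted p = 0.773), where 0.0824% were. Over all 7 groups the order of means was Tconv, R397W, I363V, WT hCD2, WT GFP, WT GFP of A384T mice and A384T. After Tconv, neighbours in this order overlapped, except WT hCD2 and WT GFP, whose 2 arrays each did not.

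Klrc1, which encodes the inhibitory partner of Klrd1, was low in all Treg arrays on 1 of its 2 probe sets. On the probe set of larger variance Tconv had -1.25 and 1.25. The Treg groups had -2.41 and -2.22 (WT GFP), -2.30 and -2.22 (WT hCD2), -2.51, -2.58 and -2.48 (WT GFP of A384T mice), -2.59, -2.23 and -2.58 (A384T), -2.31, -2.53 and -2.51 (I363V), and -2.55, -2.36 and -2.59 (R397W). The 16 Treg arrays spanned 0.37, against 2.49 between the 2 Tconv arrays. The Tconv arrays differed in the same direction for Tyrobp (-0.90 and 0.90), Gzma (-0.46 and 0.46) and the NK cell receptor Cd244a (-0.43 and 0.43), and the 14 NK and CD8 T cell markers summed to -2.11 and 2.11. Of the same 14 markers, Cd8b1 (0.28 and -0.28), Eomes (0.04 and -0.04) and Ncr1 (0.02 and -0.02) differed in the opposite direction. The part of other cells in the Tconv value of Klrc1 was not tested. On the other probe set the values lay between -0.14 and 0.19 in Treg cells and at -0.01 and 0.01 in Tconv, so the probe sets disagree. The difference between Treg cells of wild-type mice and Tconv was -2.29 on the first, 0.03 on the second and -1.13 with their mean.

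Klrk1, the activating receptor NKG2D, was slightly below Tconv in all Treg arrays. Tconv had -0.22 and 0.22. The Treg groups had -0.54 and -0.85 (WT GFP), -0.53 and -0.46 (WT hCD2), -0.42, -0.63 and -0.59 (WT GFP of A384T mice), -0.59, -0.56 and -0.49 (A384T), -0.38, -0.48 and -0.63 (I363V), and -0.49, -0.59 and -0.55 (R397W). Treg cells of wild-type mice lay 1.51-fold below Tconv (log2 difference -0.59), and neighbouring Treg groups overlapped for both Klrk1 and Klrc1. Between mutant and WT hCD2 cells Klrk1 differed by -0.06 (A384T, interval -0.34 to 0.23), -0.00 (I363V, interval -0.29 to 0.28) and -0.05 (R397W, interval -0.34 to 0.24). The same comparisons gave -0.21, -0.19 and -0.24 for Klrc1, with wider intervals (-1.16 to 0.74, -1.14 to 0.76 and -1.19 to 0.71). Neither gene was called in any of the 9 comparisons.

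The promoters of Klrg1 and Klrd1 were planned to be shown, but these genes had no entry. That of Klrb1c, which had no probe set of its own, is not shown. Klrk1, and Klrc1 on its probe set of larger variance, lay below Tconv in every Treg array. The promoters of Klrk1 and Klrc1 are shown. Each runs from 250 bases before to 50 bases after the start, 5′ to 3′ on the strand of the gene, from RefSeq on GRCm38.p6, where 3 of the 5 receptors had an entry. Klrk1 is at chr6:129623815-129624114 and Klrc1 at chr6:129678924-129679223, both on the minus strand. Capitals mark matches to any of 5 motifs searched on both strands.
Klrk1: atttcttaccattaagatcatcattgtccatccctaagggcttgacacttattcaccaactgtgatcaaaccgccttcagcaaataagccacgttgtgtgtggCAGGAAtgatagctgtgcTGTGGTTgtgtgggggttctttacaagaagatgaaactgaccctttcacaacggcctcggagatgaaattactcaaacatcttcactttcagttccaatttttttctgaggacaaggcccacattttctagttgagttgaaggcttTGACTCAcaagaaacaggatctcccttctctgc
Klrc1: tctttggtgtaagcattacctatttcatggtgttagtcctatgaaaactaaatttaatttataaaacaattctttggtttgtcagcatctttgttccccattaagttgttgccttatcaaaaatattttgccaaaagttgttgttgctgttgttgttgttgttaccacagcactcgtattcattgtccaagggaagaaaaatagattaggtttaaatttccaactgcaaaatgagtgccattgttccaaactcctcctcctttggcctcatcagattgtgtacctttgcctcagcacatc
The Klrk1 promoter held the ETS motif CAGGAA 147 bases before the start, the RUNX motif TGTGGTT 129 bases before it and the AP-1 motif TGANTCA 17 bases after it. Of 32851 promoters of this length, 30.6% held the ETS motif, 5.27% the RUNX motif and 7.81% the AP-1 motif. The Klrc1 promoter held none of the 5, which also include the forkhead motif TGTTTAC (3.65% of promoters) and the T-box motif GGTGTGA (3.98%). A match is a description of these letters and no evidence of a binding site.

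The probe set shared by Klrb1b and Klrb1c had its lowest values in the mutants. It was examined after its values had been seen. Tconv had 0.05 and -0.05. Wild-type Treg cells had -0.83 and -0.66 (WT GFP), -0.45 and -0.75 (WT hCD2), and -0.83, -0.90 and -0.96 (WT GFP of A384T mice). The mutants had -1.13, -1.40 and -1.41 (A384T), -1.31, -1.18 and -1.31 (I363V), and -1.20, -1.12 and -1.30 (R397W), all below the 7 wild-type Treg arrays. Against WT hCD2 it fell by 0.71 ± 0.12 (SE) in A384T, with an adjusted p of 0.0282 from limma over all probe sets, of which 0.147% were called. It fell by 0.66 ± 0.12 in I363V (adjusted p = 0.0209, 0.535% called) and fell by 0.60 ± 0.12 in R397W (adjusted p = 0.0199, 1.37% called). Within the A384T mice the difference was -0.42 ± 0.11 (adjusted p = 0.2, 0.333% called), and with the number as a block it had an adjusted p of 0.0245. In the fit of genes the same block called 5.23%, against 0.522% without it. Only 1 of 12 alternatives within the A384T mice called the shared probe set, and 0 of 6 that left out 1 array.

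The calls of the shared probe set rested on few arrays. Of 10 alternative fits per mutant it kept its call in 4 for A384T, 4 for I363V and 6 for R397W, always in the same direction. Without WT hCD2 array 3 the adjusted p rose to 0.225, 0.219 and 0.274, and without WT hCD2 array 4 it was 0.0693 for A384T and 0.0588 for I363V. The calls also ended without A384T array 2 (0.13) or 3 (0.129), I363V array 1 (0.0767) or 3 (0.0724), and R397W array 3 (0.0513). The sequence accession that the annotation gives for this probe set is a Klrb1c transcript in RefSeq, although the annotation assigns it to both genes. None of the probe sets of Klrb1b alone was called in a comparison.

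**Figure D4:**
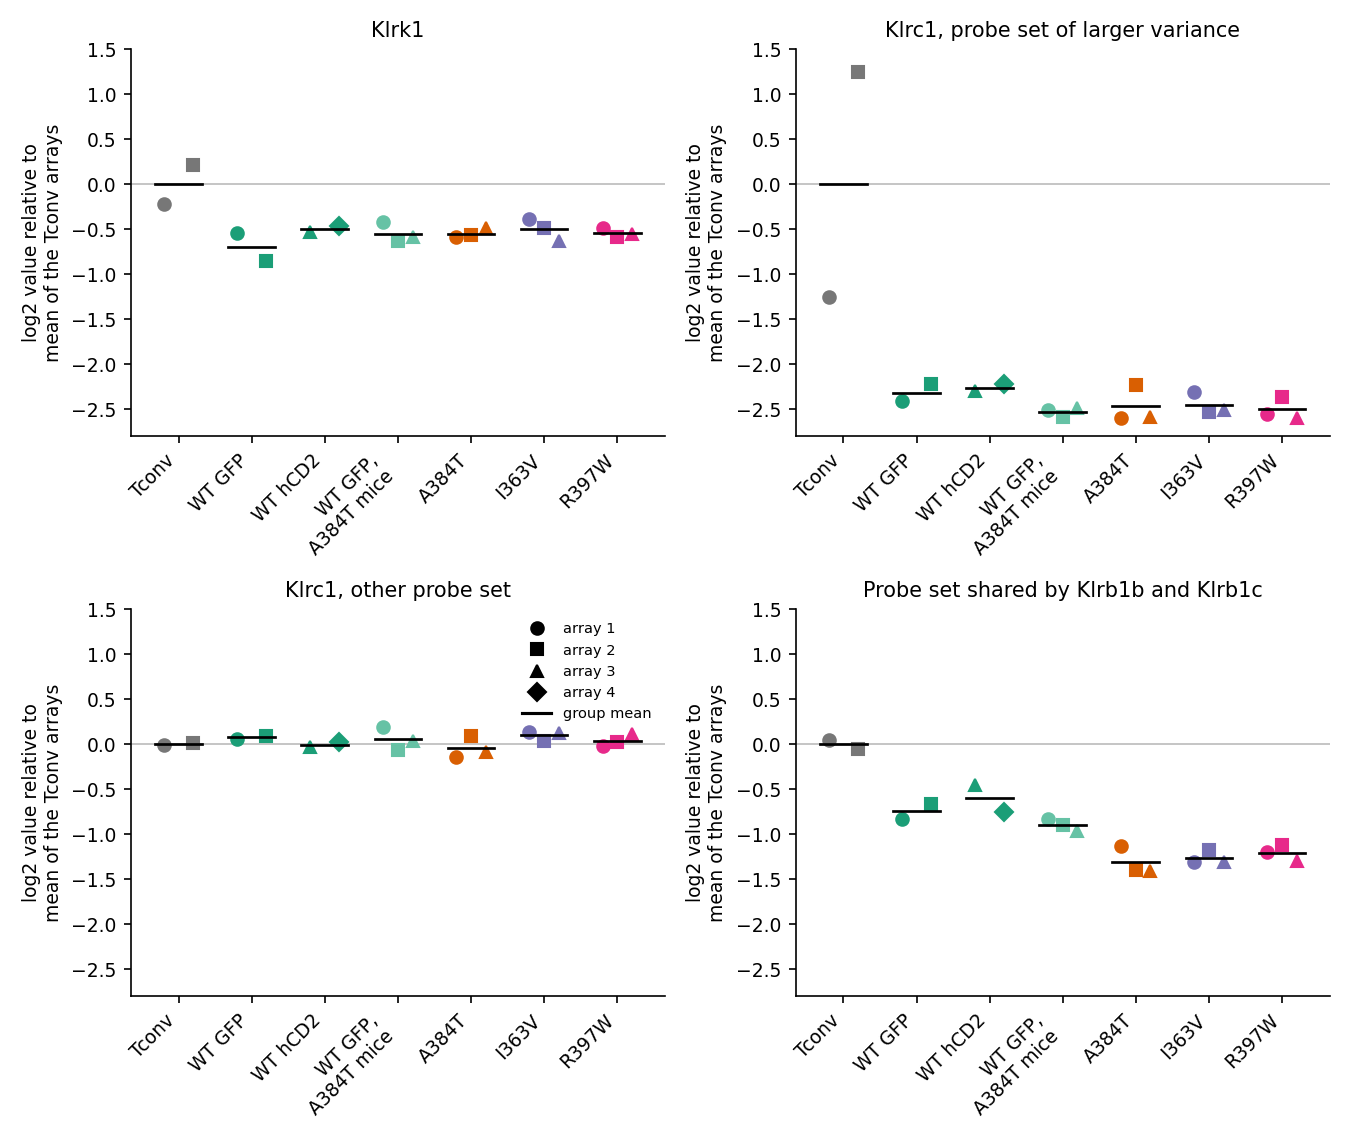
Klrk1, both probe sets of Klrc1 and the probe set shared by Klrb1b and Klrb1c in each array, as log2 value with the Tconv mean at 0, by group, where symbols give the array number and bars the group mean. The Treg arrays of Klrk1 lie between -0.85 and -0.38, the Klrc1 probe sets differ from each other, and the 9 mutant arrays of the shared probe set, at -1.41 to -1.12, lie below the wild-type Treg arrays.

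The rest of the receptor family changed little. Of 33 other Klr genes listed, 14 were measured. None was called in any mutant against WT hCD2, and at an unadjusted p under 0.05 there were 1, 0 and 1 of 14 for A384T, I363V and R397W, against 8.07%, 8.94% and 11.7% of all genes. Their median change was -0.07, 0.03 and 0.06, and that of all genes -0.02 in each. Klrb1f, a relative of Klrb1c, was lower in A384T (-0.63, -0.77 and -0.62) than in R397W cells (0.01, 0.28 and 0.84), with a log2 change of -1.05 ± 0.26 (adjusted p = 0.0426). On the other probe set of Klrb1f the same difference was 0.03 ± 0.11, and with the mean of both it was -0.51. The call was lost in 11 of 14 alternatives, including those without any 1 A384T array or without R397W array 2 or 3. Many Klr genes are near-identical copies, so the gene that a probe set measures is uncertain among them.

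The proteins that the receptors signal through, and their ligands, were listed as well. Of 12 adaptors and signalling proteins 11 were measured, and limma called none in any of the 9 comparisons. Against WT hCD2, 0.28% (A384T), 0.912% (I363V) and 2.26% (R397W) of all genes were called. At an unadjusted p under 0.05 there were 1, 1 and 4 of 11 in these comparisons, against 8.07%, 8.94% and 11.7% of all genes. Tyrobp lay between -2.33 and -0.75 in Treg cells, whereas Hcst, the adaptor DAP10 of Klrk1, lay between -0.47 and 0.50. Of 19 ligands 10 were measured and none was called. At an unadjusted p under 0.05 there were 0, 0 and 1 of 10 against WT hCD2, beside the same shares of all genes. Cdh1, the E-cadherin bound by Klrg1, was between -0.45 and -0.04 in Treg cells.

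T cell transcription factors and cytotoxic genes were listed because Klrg1 marks effector cells. Not all factors on the list are effector factors. It also holds Lef1, Foxo1, Bach2 and Id3, and Ikzf2, which is among the Treg markers above, so its median mixes kinds of factors. Of 17 measured factors, 0 were called lower than WT hCD2 in A384T, 2 in I363V and 5 in R397W, and none was called higher. Of all genes, 0.143%, 0.682% and 1.55% were called lower. The median change of the list was -0.17, -0.28 and -0.37, against -0.02 for all genes. The factors called in I363V were Prdm1 (-1.32) and Ikzf2 (-0.91), and those in R397W were Tbx21, Prdm1, Maf (-1.44), Gata3 (-1.18) and Ikzf2 (-1.02). Without a WT hCD2 array, the I363V calls and those of Maf (array 3) and Gata3 (either array) in R397W were lost. Gata3 and Maf also lost their call without R397W array 1 or 2, Maf without R397W array 3, and Ikzf2 in I363V without I363V array 1. After quantile normalization Ikzf2 was at -0.57 in I363V (adjusted p = 0.485) and -0.24 in R397W (adjusted p = 0.874), and neither was called in the fit of the compared groups alone. In R397W cells Tbx21, the T-box factor T-bet, fell by 1.75 ± 0.27 (adjusted p = 0.00249) and Prdm1, the effector repressor Blimp-1, fell by 1.46 ± 0.22 (adjusted p = 0.00225). Both stayed called without any 1 array of the groups compared, and Prdm1 missed the threshold in the fit of those groups alone (adjusted p = 0.0794). In A384T cells Tbx21 was -0.41, -0.18 and -0.23, within the range of the wild-type Treg arrays (-0.52 to -0.07). Those arrays overlapped Tconv, which had -0.30 and 0.30. The part of Tbx21 in the change of Klrg1 was not tested. Within the A384T mice the AP-1 family factor Batf fell by 1.31 ± 0.24 (adjusted p = 0.0222). That call was lost without A384T array 1 or 3, or without wild-type array 2 or 3, with an adjusted p up to 0.143, in fits that do not pair the arrays, and held with the number as a block.

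Of 14 cytotoxic genes, 0 were called lower in A384T, 2 in I363V and 3 in R397W, against WT hCD2, where the shares of all genes called lower were again 0.143%, 0.682% and 1.55%. Granzyme B (Gzmb) fell by 2.45 ± 0.46 in I363V and fell by 2.71 ± 0.46 in R397W, and it was not called without WT hCD2 array 4 (-1.49, adjusted p = 0.324, and -1.74, adjusted p = 0.0849) nor, in I363V, without I363V array 1 or 3. Gzmb arrays of A384T were 1.09, 1.58 and 1.18 and overlapped the wild-type Treg arrays, which ran from 1.11 to 3.51. The chemokine gene Ccl5 fell by 2.54 ± 0.37 in R397W (adjusted p = 0.00173) and stayed called without any 1 array of the groups compared. In I363V it fell by 1.89 ± 0.37 (adjusted p = 0.0243), a call lost without either WT hCD2 array (adjusted p = 0.0846 without array 3 and 0.307 without array 4) or without I363V array 1 or 3. The death ligand Tnfsf10 fell by 0.96 ± 0.15 in R397W (adjusted p = 0.00376, and 0.0738 without WT hCD2 array 3). Within the A384T mice it fell by 0.78 ± 0.14 (adjusted p = 0.0178), a call lost in 5 of 6 fits without 1 array, all but that without A384T array 2, with an adjusted p up to 0.0923, in fits that do not pair the arrays, and held with the number as a block.

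Between mutants, where Klrg1 was not called, several of these genes were. Of all genes, 3.13% were called for A384T against R397W, 1.14% for A384T against I363V and 0.0824% for I363V against R397W. A384T was above R397W for Tbx21 (1.73 ± 0.24, adjusted p = 0.000865), Prdm1 (1.18), Gata3 (1.17), Nkg7 (2.02) and the interferon gene Ifng (2.37), and below it for Id2 (-1.31) and Fasl (-1.30). A384T was above I363V for Prdm1 (1.04) and the granule gene Nkg7 (2.01), and below it for Id2 (-1.23) and Fasl (-1.18). Tbx21 was called in all 14 alternatives. Against R397W, Prdm1, Nkg7 and Ifng kept their call without any 1 array. With the number as a block they lost it (limma adjusted p = 0.121, 0.135 and 0.0566), as did Nkg7 after quantile normalization (0.0579). The remaining calls between mutants each ended without at least 1 array. Against I363V, Fasl kept its call in 3 of 14 alternatives and Id2 in 6. I363V and R397W differed in none of the factors or cytotoxic genes by limma, with 2 of 17 and 2 of 14 at an unadjusted p under 0.05, against 8.52% of all genes.

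Markers of other cell types were read beside the receptors. The 14 NK and CD8 T cell markers summed to between -10.88 and -6.07 in wild-type Treg arrays, between -13.75 and -8.75 in mutant arrays, and to -2.11 and 2.11 in Tconv. Of these 14, 6 had all Treg arrays below both Tconv arrays, as did Klrd1 and 2.68% of all genes: the perforin gene Prf1 (-2.88 to -1.70), Crtam, Eomes, Fasl, Cd244a and Fcgr3. The defining markers Cd8a (-0.40 to 0.30), Cd8b1 (-0.34 to 0.25) and Ncr1 (-0.35 to 0.19) stayed near their Tconv values. Among the 14, Gzma, Prf1, Fasl, Nkg7 and Ccl5 are also on the list of cytotoxic genes. Ccl5 had a mean of -0.13 in wild-type Treg and -2.10 in mutant arrays, and Gzma -0.10 and -0.82. Prf1 had -2.08 and -2.04, and Crtam -2.02 and -1.87. The 4 NKT cell markers summed to between -2.77 and -0.12 in wild-type and -4.65 and -1.21 in mutant Treg arrays, and to -0.55 and 0.55 in Tconv. The 8 myeloid markers summed to between -8.31 and -6.04 in R397W and to 1.82 and 3.68 in WT hCD2, with a change of Lyz2 of -2.66 ± 0.35. The part of other cells in the changes of the receptors was not tested.

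The genes whose pattern over the 18 arrays was most like Klrg1 were S100a6 (Pearson r = 0.98), Ttc39c (0.98), Gcnt1 (0.97), Cass4 (0.96) and S100a4 (0.96). Over the 16 Treg arrays alone the same genes had r of 0.99, 0.98, 0.97, 0.97 and 0.99. S100a6, a calcium-binding protein, had means of 1.90 (WT GFP), 2.17 (WT hCD2), 2.12 (WT GFP of A384T mice), -0.67 (A384T), -0.83 (I363V) and -1.21 (R397W). For Klrd1 the most alike were App (0.96), Adgrg3 (0.95), Atp8b4 (0.94), Klhl4 (0.94) and Dntt (0.94), which within Treg cells fell to 0.57, 0.44, 0.74, 0.60 and 0.05. The likeness to Klrd1 thus rested largely on the step between Tconv and Treg cells. That to Klrg1 was as high among Treg arrays alone, but these hold a step as well. Klrg1 and the genes like it all had higher means in each wild-type Treg group than in each mutant. Klrg1 and Klrd1 had an r of -0.33 over all arrays and -0.36 over Treg arrays, and Klrd1 and Klrc1 0.87 and 0.16. These values describe arrays that share their groups and their centring on the same Tconv arrays, and carry no test.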

How the data were processed

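RNA of 18 sorted T cell samples in 7 groups was measured on Affymetrix mouse arrays, after Isogen and RNeasy extraction and two-cycle labelling per the labels. The authors deposited log2 values made with RMA, per the submitters' processing notes; the log base follows RMA's convention, and its software and version are not given in the sources used here. The deposited values are centred: the Tconv arrays sum to at most 1e-06 at each probe set. Values ran from -5.80 to 7.59 and array medians from -0.063 to 0.016, and no further normalization was applied. A filter on dim probe sets could not be applied to centred values.

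The chip annotation gave 34945 probe sets a single gene, 932 several genes and 9160 no gene, and 64 control probe sets were left out. The 1-gene probe sets gave 18193 genes, each represented by its probe set of largest variance. Among arrays of 1 group the highest correlation was 0.887, and no array was a copy of another. limma 3.58.1 in R 4.3.3 fitted group means over all arrays (11 residual degrees of freedom, 3.3 prior), with two-sided moderated tests, Benjamini-Hochberg adjustment over all genes and 95% intervals. The shared probe set was tested in a fit of 45037 probe sets. The code was tested on simulated data.

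For A384T and wild-type arrays of the A384T mice, deviations from the group means correlated at 0.69, 0.65 and 0.58 between arrays sharing a number, and at -0.45 to -0.16 otherwise. The pairing comes from these data, since no label states it. The members and lists were chosen with earlier results of these data known. All 5 receptors are named, along with called genes of the lists and the 5 genes most alike to Klrg1 and to Klrd1; Tyrobp, Gzma and Cd244a were named after their values were seen. Alternatives were other probe set choices, normalizations, variance models, array weights, fits of the compared groups alone, the replicate block and leaving out each array. Python 3.11.15, numpy 2.4.6, pandas 2.3.3 and matplotlib 3.10.9 prepared tables, motif searches and plots.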

Additional observations from a re-analysis of the deposited data

Results flagged for a closer look

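The reporter difference of Klrg1 differed between mice: in A384T mice the hCD2 cells, which carry the mutation, were below the GFP cells, and in wild-type mice the hCD2 mean was above the GFP mean. The test of this difference gave -4.48 on the log2 scale, with an adjusted p of 0.0163 from limma. Its adjusted p ranged from 0.00532 to 0.103 over the alternative fits. Each of the wild-type groups in this comparison from wild-type mice has 2 arrays.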

How the results depend on the processing

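Of 592 values of the receptors under alternatives, the shared probe set included, 566 kept their side of the threshold, 24 lost a call and 2 gained one. None that was called reversed, and 45 values that were uncalled in both fits changed sign. The decrease of Klrg1 against WT hCD2 was called in all 12 alternatives for each mutant, with adjusted p up to 0.0325 (A384T), 0.0413 (I363V) and 0.0331 (R397W), and in all 14 within A384T mice, with adjusted p up to 0.00336. The reporter comparison, with 1 receptor called, had 0 called in the fit of the compared groups alone (Klrg1 -4.48, adjusted p = 0.103) and after quantile normalization (-3.68, adjusted p = 0.0927). Leaving out 1 array gave 0 to 1 called, with Klrg1 at -5.25 to -3.72 and adjusted p up to 0.0767; 6 of 10 such fits lost the call. Between A384T and R397W, leaving out 1 array also gave 0 to 1 called, the 1 being Klrd1 without R397W array 3. The replicate block changed no call of the 4 receptors; in the pairing of A384T mice it gave Klrg1 -3.93 with an adjusted p of 2.6e-06, and for Klrd1 between A384T and R397W, where samples share only a number, -1.02 with an adjusted p of 0.133.

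Counts of all genes called varied more: 51 (10 to 66) for A384T, 166 (28 to 241) for I363V and 412 (32 to 615) for R397W against WT hCD2, 95 (27 to 952) within A384T mice, 207 (29 to 355), 569 (48 to 795) and 15 (1 to 57) for A384T against I363V, A384T against R397W and I363V against R397W, and 9 (0 to 15) for the reporter comparison. The cause was not tested. Signal over background cannot be read from centred values. Where a group was left with 1 array, that array was taken to vary like the other groups.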
